A study of Bos grunniens with 24 samples.

Results

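Jejunal gene expression was compared between yak calves (Bos grunniens) pretreated with Pediococcus pentosaceus NQ0729, a lactic acid bacterium, ahead of a challenge with enterotoxigenic Escherichia coli (PET) and calves that met the challenge alone (ETEC). The members are the 16 libraries titled PET-1 to PET-8 and ETEC-1 to ETEC-8, out of 24 in the series, and the 639 genes that the deposited table lists. Both groups received the challenge, so the contrast concerns the pretreatment. The 8 control libraries (CON), from control calves, are given beside some genes as a description only. Doses, timing, ages, sexes, the challenge strain and the position along the jejunum were not given in the sources used here. The labels name the tissue and the bacterial strain of the pretreatment. They call the libraries replicate biosamples without naming animals, so a p-value here measures only how far these samples spread, part of which may be technical. Every listed gene was called by the authors in at least 1 of the comparisons among the 3 groups, so the shares below are shares of a selected list and not of the transcriptome.

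Enterotoxigenic E. coli attaches to the small intestine and releases toxins that drive chloride and water into the lumen. The cells it meets are enterocytes, whose apical brush border carries peptidases that trim dietary peptides and transporters that take up amino acids, phosphate, sulfate and vitamins. The equipment of the brush border changes along the gut: peptide digestion is strong throughout the small intestine, whereas bile acid uptake by SLC10A2 and FABP6 is a feature of the ileum.

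The libraries differed in ways that bear on every comparison. Summed counts of the listed genes were 466708 to 863801 in ETEC and 475295 to 1209769 in PET, and relative depth, taken from the ratio of count to FPKM, from 0.848 to 1.501 and from 0.834 to 1.30. The profiles of 7 of the 16 libraries could be written nearly as a weighted mix of a pair of other libraries from their own group. These were ETEC-1 to ETEC-4 and PET-1 to PET-3, with residuals of 0.248 to 0.762 of those left by the best single library, against 0.864 to 1 in the other 9. ETEC-1, for example, was fitted by ETEC-5 (48.4%) and ETEC-6 (51.6%), PET-1 by PET-4 (89.9%) with PET-5, PET-2 by PET-6 (49.3%) and PET-7 (50.7%), and PET-3 by PET-6 (45.4%) and PET-8 (54.6%). The main test treats all 16 as independent, so results are also given for the 9 libraries without this property, which are ETEC-5 to ETEC-8 and PET-4 to PET-8. USP9Y, a Y-linked ubiquitin protease gene, had 0 counts in ETEC-8 and PET-8 and was detected in the other 14 of these libraries. It stood at 0 FPKM in every CON library. ENSBGRG00000015085, ENSBGRG00000016112, ENSBGRG00000016206 and ENSBGRG00000016329 were likewise at 0 FPKM in CON, ETEC-8 and PET-8 and detected in the other ETEC and PET libraries. CON thus differed from most ETEC and PET libraries in these genes. The CON libraries were not fitted as mixes. The enterocyte genes ENPP3 and MTTP stood at medians of 112 and 69.2 FPKM in ETEC, but at 2.91 and 15.0 in PET-5. Other enterocyte genes were low in ETEC, such as SLC6A19 at 0.495 to 1.87 FPKM and SLC7A9 at 0.0248 to 0.133. These genes are therefore no check of the tissue label. Most other markers of the jejunum are outside the table and were not analysed here.

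Of the 639 genes, 527 had enough counts in enough libraries to be tested. The edgeR quasi-likelihood test with Benjamini-Hochberg adjustment called 238 of them at an adjusted p under 0.05, which is 45.2% of those tested. Of these, 178 genes (33.8%) were higher and 60 (11.4%) were lower in PET, and 269 had an unadjusted p under 0.05. The median log2 fold change (PET over ETEC throughout) was 0.38 over all genes tested, 1.71 over the rises and -1.26 over the falls. With DESeq2 size factors, which presume that most entered genes do not change, the calls were 109 higher and 65 lower (33.0% in all), and with TMM scaling 136 higher and 69 lower (38.9%). Those scalings moved the log2 fold changes by medians of -0.30 and -0.27, and 0 genes were called in opposite directions.

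With ETEC-5 to ETEC-8 and PET-4 to PET-8 alone, edgeR called 0 of 543 genes. The smallest adjusted p there was 0.200, and 129 genes (23.8%) had an unadjusted p under 0.05. DESeq2 called 54 of 425 genes there (12.7%; 44 higher and 10 lower). Limma called 0, with 97 genes (17.9%) on voom weights and 59 (10.9%) on log2(FPKM + 0.1) at an unadjusted p under 0.05. Direction was kept by all 178 rises and all 60 falls, of which 95 and 23 had an unadjusted p under 0.05. These 9 libraries are among the 16 that chose the called genes, so kept directions and similar fold changes follow largely from that choice and are no separate check. The median log2 fold change of the rises was 1.85 over these 9 libraries and that of the falls -1.30, while the median standard error went from 0.51 to 0.80 for the rises and from 0.39 to 0.65 for the falls. Every edgeR call named below rests on all 16 libraries and was lost with these 9.

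**Figure D1:**
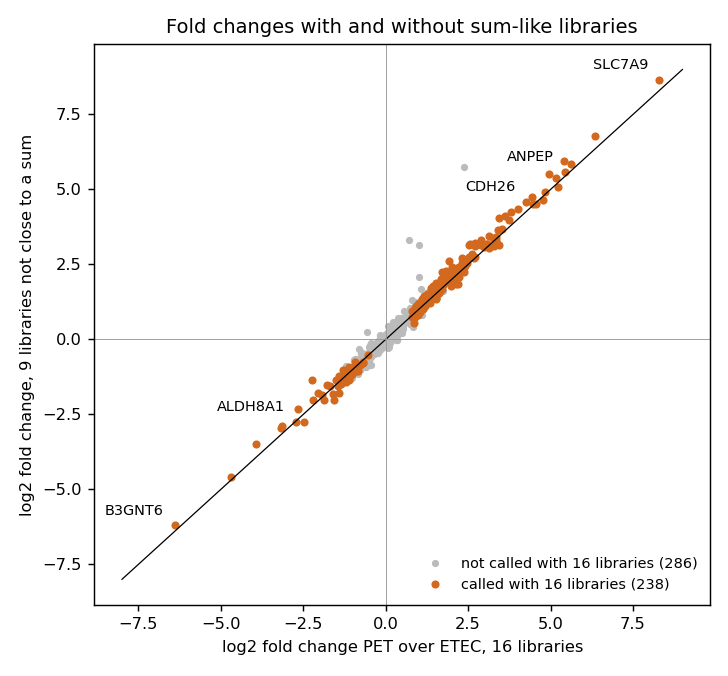
Log2 fold change of PET over ETEC for each of 524 genes with all 16 libraries (x axis) and with the 9 libraries not close to a sum (y axis). Orange points are the 238 genes called with 16 libraries, grey points the rest, and the diagonal marks equal values. The orange points keep their sign on both axes.

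The rises and falls were carried by different numbers of libraries. Among the 178 rises, the median gene had 5 PET libraries above the highest ETEC library, and 21 genes (11.8%) had at least 7. Among the 60 falls, the median gene had 6 PET libraries below the lowest ETEC library, and 24 (40%) had at least 7. PET-1, PET-4 and PET-5 exceeded the ETEC range in 169, 159 and 157 of the rises, PET-2 and PET-7 in 132 and 124, and the remaining PET-3, PET-6 and PET-8 in 46, 51 and 58. The falls were spread more evenly, from 30 genes in PET-3 to 52 in PET-1 and PET-7. The spread was wide among pretreated libraries: the median coefficient of variation over the rises was 89.1% in PET and 24.5% in ETEC, and over the falls 55.0% and 35.01%. In the rises the SD was larger in PET for all 178 genes, and in the falls for 16 of 60. Such counts describe these libraries, since the same values chose the called genes.

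**Figure D2:**
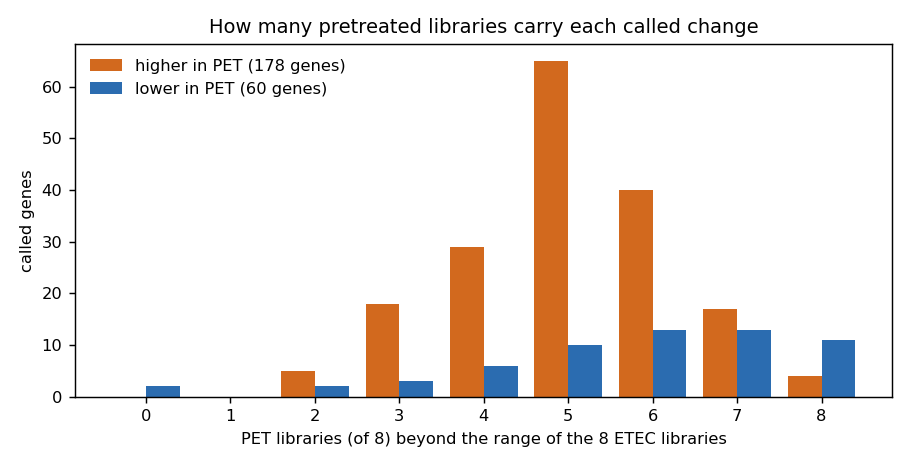
Number of called genes (y axis) by how many of the 8 PET libraries lay beyond the range of the 8 ETEC libraries (x axis), for genes higher in PET (orange) and lower in PET (blue). The rises peak at 5 libraries with 65 genes, while the falls peak at 6 and 7 with 13 genes each.

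The brush border peptidases rose together in the mean, and the rise stood in the same 5 PET libraries for most of them. All 6 members of that list that were tested rose, ACE, ANPEP, ENPEP, MEP1A and XPNPEP2 among them. The median log2 fold change of the 6 was 3.40 against 0.38 over all genes tested, of which 33.8% rose. CPO had enough counts in too few libraries for the filter. ANPEP, aminopeptidase N, which frees amino acids from the ends of small peptides (ENSBGRG00000006001; chromosome 17, 21793317 to 21809835 in the authors' table, whose genome build is not given in the sources used here), ran from 7.53 through a median of 11.7 to 16.2 FPKM in ETEC. In PET it read 963 in PET-1, 266 in PET-2, 9.46 in PET-3, 998 in PET-4, 1374 in PET-5, 16.4 in PET-6, 474 in PET-7 and 7.41 in PET-8. PET-1, PET-2, PET-4, PET-5 and PET-7 thus lay far above every ETEC library, and PET-3, PET-6 and PET-8 lay at or near the ETEC range. PET-1, PET-2 and PET-3 were close to a sum of others. Without them the split was PET-4, PET-5 and PET-7 against PET-6 and PET-8, here and for genes below with the same order. The fitted log2 fold change was 5.42 ± 0.97 (SE) with an adjusted p of 0.00209 in edgeR, and 5.58 over the 9 libraries (unadjusted p = 0.00349).

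ENPEP, glutamyl aminopeptidase, which removes acidic residues, had the same order of libraries. It spanned 2.17 to 3.29 FPKM in ETEC (median 2.61) and 2.60 to 376 in PET (median 27.0), with PET-3, PET-6 and PET-8 at 2.91, 3.16 and 2.60. A log2 fold change of 5.16 ± 0.99 had an adjusted p of 0.00299 in edgeR, and was 5.40 over the 9 libraries (unadjusted p = 0.00514) and 4.40 without PET-5. XPNPEP2, which cuts next to proline (ENSBGRG00000007748), ranged from 3.26 to 4.46 FPKM in ETEC and from 3.38 to 37.9 in PET, with a log2 fold change of 2.30 ± 0.51 and an edgeR adjusted p of 0.00504. These genes shared a split within PET that the labels do not name.

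The control libraries were split in the same genes. ANPEP was at 311 to 716 FPKM in CON-1, CON-2, CON-3, CON-5 and CON-6 and at 8.71 to 9.71 in CON-4, CON-7 and CON-8. ENPEP was at 29.7 to 117 FPKM in the former 5 and at 3.03 to 3.76 in the latter 3. High and low libraries for these genes thus occurred in CON and in PET, while the 8 ETEC libraries were all low.

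PET-5 left the shared order for part of the peptidases. ACE, the dipeptidase that also makes angiotensin II, was at 10.0 to 17.3 FPKM in ETEC, at 329 and 400.3 in PET-1 and PET-4, at 126 in PET-7 and at 63.9 in PET-5 (log2 fold change 3.36 ± 0.70, edgeR adjusted p = 0.00403). MEP1A, the alpha subunit of the metalloprotease meprin, was at 94.0, 122 and 24.4 FPKM in PET-1, PET-4 and PET-7 but at 0.946 in PET-5, within the ETEC range of 0.726 to 9.04 (log2 fold change 3.43 ± 1.09, edgeR adjusted p = 0.0192, and 2.69 without PET-4). CPO, a brush border carboxypeptidase, was listed at 0 to 0.0699 FPKM in ETEC and at 0.0260 to 30.9 in PET (median 3.28), above every ETEC library in 7 of 8. Without the filter on low counts its edgeR adjusted p was 0.00174.

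All 6 amino acid and peptide transporters in the table rose (median log2 fold change 2.66), and 5 of 6 did with TMM scaling. The shares over all genes tested were 33.8% and, with TMM scaling, 25.8%. SLC7A9, the light chain of the cystine and dibasic amino acid carrier (ENSBGRG00000014100; chromosome 20, 2220158 to 2259699), had the largest fitted rise among named genes that were tested. It was nearly silent in ETEC, from 0.0248 to 0.133 FPKM (median 0.0902), and read 32.0, 6.10, 0.0902, 27.0, 134, 0.207, 9.92 and 0.180 in PET-1 to PET-8. All but PET-3 lay above the ETEC range, though PET-6 and PET-8 lay only just above it. The log2 fold change was 8.30 ± 1.42 with an edgeR adjusted p of 0.00209, 8.66 over the 9 libraries (unadjusted p = 0.00255) and 7.02 without PET-5.

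SLC6A19, the main apical carrier of neutral amino acids (chromosome 23, 8262946 to 8284118), was at 0.495 to 1.87 FPKM in ETEC (median 0.892) and 0.887 to 132 in PET (median 33.0). The 5 PET libraries above the ETEC range were again PET-1, PET-2, PET-4, PET-5 and PET-7, at 28.1 FPKM or more, and the other 3 lay inside it, at 0.887 to 1.43. This gave a log2 fold change of 5.62 ± 1.01 with an edgeR adjusted p of 0.00209. SLC1A1, a glutamate carrier, rose by 2.62 ± 0.60 on the log2 scale (adjusted p = 0.00538), from a median of 2.26 FPKM to a median of 9.93.

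Carriers of the blood side of the cell rose as well. SLC7A8, which exports neutral amino acids to the blood side, was at 4.24 to 5.90 FPKM in ETEC and 3.93 to 83.7 in PET (log2 fold change 2.71 ± 0.58, edgeR adjusted p = 0.00403). SLC7A7, which exports dibasic ones, was at 8.72 to 11.6 and 9.40 to 82.6 FPKM (log2 fold change 1.88 ± 0.46, edgeR adjusted p = 0.00673). SLC15A1, the apical peptide carrier known as PEPT1, was at 18.9 to 26.0 FPKM in ETEC and at 187, 152, 47.9 and 37.8 in PET-4, PET-1, PET-7 and PET-2, with PET-5 at 21.8, inside the ETEC range. Its log2 fold change of 1.52 ± 0.51 had an edgeR adjusted p of 0.0228, and the call was lost without PET-1 or without PET-4 (adjusted p up to 0.0698). PDZK1, a scaffold under brush border transporters, followed PET-1, PET-4 and PET-5 at 138 to 168 FPKM against 24.8 to 36.7 in ETEC (log2 fold change 1.38 ± 0.45, edgeR adjusted p = 0.0205).

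**Figure D3:**
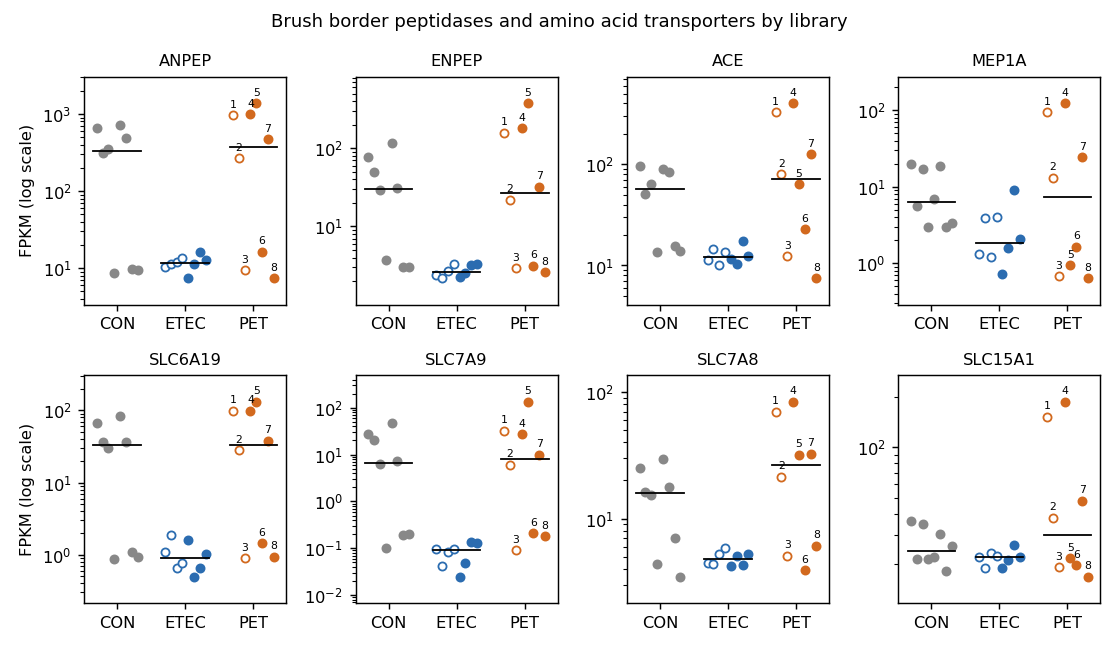
FPKM (log axis) of 4 peptidase and 4 amino acid or peptide transporter genes in each CON (grey), ETEC (blue) and PET (orange) library; numbers beside PET points are replicate numbers, black bars are medians, and open circles are ETEC or PET libraries close to a sum of others. For ANPEP, PET-1, PET-2, PET-4, PET-5 and PET-7 sit at 266 FPKM or more while PET-3, PET-6 and PET-8 sit at 16.4 or less.

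Carriers of ions and bicarbonate were higher in PET, and all 4 tested members of that list rose (CA4, CA12, SLC26A3 and SLC4A4). The median log2 fold change of the 4 was 3.73, and the share of rises over all genes tested was 33.8%. SLC26A3, the apical chloride-bicarbonate exchanger through which enterocytes take chloride back from the lumen (ENSBGRG00000005777), was at 0.897 to 1.82 FPKM in ETEC (median 1.47). In PET the 5 libraries listed for ANPEP were at 29.6 to 79.4 FPKM, and PET-3, PET-6 and PET-8 were at 0.946, 0.804 and 0.834. SLC26A3 had a log2 fold change of 4.44 ± 0.88 with an edgeR adjusted p of 0.00299, and 4.73 over the 9 libraries (unadjusted p = 0.00682). SLC4A4, which moves sodium and bicarbonate across the basolateral side, was at 7.06 to 11.9 FPKM in ETEC and 9.46 to 33.6 in PET, with PET-5 at 10.7 inside the ETEC range (log2 fold change 1.09 ± 0.32, edgeR adjusted p = 0.0146). CA12, a membrane carbonic anhydrase, was above the ETEC maximum of 0.348 FPKM in 5 PET libraries and below the ETEC minimum of 0.205 in PET-6 and PET-8, at 0.133 and 0.101 (log2 fold change 4.02 ± 0.89, edgeR adjusted p = 0.00504, and 3.03 without PET-5). CA4, a membrane-anchored carbonic anhydrase, read 11.01 FPKM in PET-5, 1.20 in PET-1 and 0.184 to 0.300 in the other 6, against 0.106 to 0.224 in ETEC. Its log2 fold change of 3.43 ± 0.90 (edgeR adjusted p = 0.00895) was 1.29 without PET-5.

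The carriers of sulfate, phosphate, dicarboxylates and vitamins moved in both directions, with 3 rises and 2 falls among 5 tested. Over all genes tested, 33.8% rose and 11.4% fell. SLC34A2, an apical phosphate carrier, was at 0.0276 to 2.33 FPKM in ETEC (median 0.629) and 0.0143 to 37.8 in PET (median 23.1), and PET-8 was lowest of all 16 libraries (log2 fold change 4.46 ± 1.15, edgeR adjusted p = 0.00895). SLC23A1, which takes up vitamin C, rose by 2.59 ± 0.58 on the log2 scale (adjusted p = 0.00504), from a median of 4.10 to 20.0 FPKM. The riboflavin carrier SLC52A3 rose by 1.49 ± 0.45 (adjusted p = 0.0166), and its PET values fell into 5 libraries at 1.60 to 3.202 FPKM and 3 at 0.445 to 0.520. SLC13A1, the apical sulfate carrier, was below the filter, which asks for enough counts in as many libraries as a group holds. ETEC held nearly none, and PET-3, PET-6 and PET-8 were at only 0.0550 to 0.0570 FPKM. SLC13A1 still lay above the ETEC range in 8 of 8 PET libraries, from 0.0550 to 31.5 FPKM against 0.0108 to 0.0469 (edgeR adjusted p without the filter 0.00174).

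Folate and citrate carriers went the other way. SLC46A1, the intestinal folate carrier, was at 47.4 to 69.9 FPKM in ETEC (median 58.4) and at 5.32 to 55.7 in PET (median 23.2), with PET-5, PET-1, PET-4 and PET-7 lowest at 5.32 to 15.8. PET-3 and PET-8 stayed inside the ETEC range at 51.8 and 55.7. The log2 fold change of -1.07 ± 0.40 had an edgeR adjusted p of 0.0379, and the call was lost when any of 10 single libraries was left out (adjusted p up to 0.0712). SLC13A2, which takes up citrate and succinate, was at 18.4 to 44.3 FPKM in ETEC and 2.87 to 37.8 in PET, where PET-5 was the highest library (log2 fold change -1.31 ± 0.49, edgeR adjusted p = 0.0390). That call was also lost without any of 10 single libraries (adjusted p up to 0.0727).

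Among the 16 libraries, genes of distal bowel identity were highest in PET-5, and control libraries carried high values for part of them too. SLC10A2, the apical sodium-dependent bile acid carrier (ENSBGRG00000004025; chromosome 15, 12092554 to 12114425), was at 0.532 to 0.874 FPKM in ETEC and read 14.3, 4.22, 0.889, 5.40, 135, 0.737, 5.23 and 1.13 in PET-1 to PET-8. All but PET-6 lay above the ETEC range, and the log2 fold change was 4.94 ± 1.05 (edgeR adjusted p = 0.00403; 5.52 over the 9 libraries with unadjusted p = 0.00856; 2.75 without PET-5). FABP6, which binds bile acids inside the enterocyte, was at 51.3 FPKM in PET-5 and 1.43 to 5.08 in the other PET libraries, against 0.912 to 4.39 in ETEC. Its log2 fold change was 1.92 ± 0.69 (edgeR adjusted p = 0.0309), and without PET-5 the log2 fold change was 0.46 and the adjusted p 0.313; leaving out any of ETEC-1, ETEC-3, ETEC-5 and ETEC-8 also ended the call. In CON-1, CON-2 and CON-5, FABP6 was at 479.6, 378 and 849 FPKM, above PET-5, and SLC10A2 at 38.6, 37.1 and 83.0. The CON libraries were not examined for being mixes of others, so CON-1, CON-2 and CON-5 need not be separate cases. The other 5 control libraries were at 0.890 to 13.7 FPKM for FABP6 and 0.455 to 3.90 for SLC10A2.

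Among the regional transcription factors, 2 of 3 tested rose, HOXB6 among them, and ONECUT2 did not pass. The share of rises over all genes tested was 33.8%. HOXB6, a homeobox gene of posterior identity, was at 157 FPKM in PET-5, 17.5 in PET-1 and 2.66 to 8.58 in the other 6 PET libraries, against 3.02 to 4.87 in ETEC and 5.81 to 16.1 in CON (log2 fold change 2.76 ± 0.82, edgeR adjusted p = 0.0153; without PET-5 a log2 fold change of 0.82 and 0.0910). ONECUT2, a factor of the proximal small intestine, was at 7.29 to 12.6 FPKM in ETEC; PET-5 stood at 0.0409, PET-3 and PET-8 at 13.1 and 16.2, and the other 5 PET libraries at 2.10 to 5.18 (log2 fold change -0.73 ± 0.61, edgeR adjusted p = 0.363). The zinc finger gene OSR2, below the filter, was at 0.0670 to 0.167 FPKM in ETEC and at 20.2 FPKM or more in the 5 PET libraries high for ANPEP, while PET-3, PET-6 and PET-8 were at 0.0908, 0.196 and 0.136.

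Of the 16 libraries, PET-5 held the lowest value for the enterocyte genes ENPP3 and MTTP. It held the highest for other enterocyte genes, among them ANPEP, ENPEP, SLC6A19 and SLC7A9. ENPP3, an ectonucleotidase, was at 92.7 to 141 FPKM in ETEC and at 2.91 in PET-5, 32.6 to 39.5 in PET-2, PET-6 and PET-7, 103 in PET-3, and 158 to 271 in PET-1, PET-4 and PET-8. The group difference was therefore small against the spread (log2 fold change -0.09 ± 0.57, edgeR adjusted p = 0.921). MTTP, which loads lipid onto lipoproteins, was at 59.5 to 77.4 FPKM in ETEC and from 15.0 in PET-5 to 119 in PET-4 (log2 fold change -0.14 ± 0.31, adjusted p = 0.743). Of all genes tested, 144 had their highest and 68 their lowest value among the 16 libraries in PET-5. In bulk tissue, more cells of a kind and more RNA per cell cannot be told apart, the position of each sample is not in the labels, and the part of either in the rises was not tested.

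**Figure D4:**
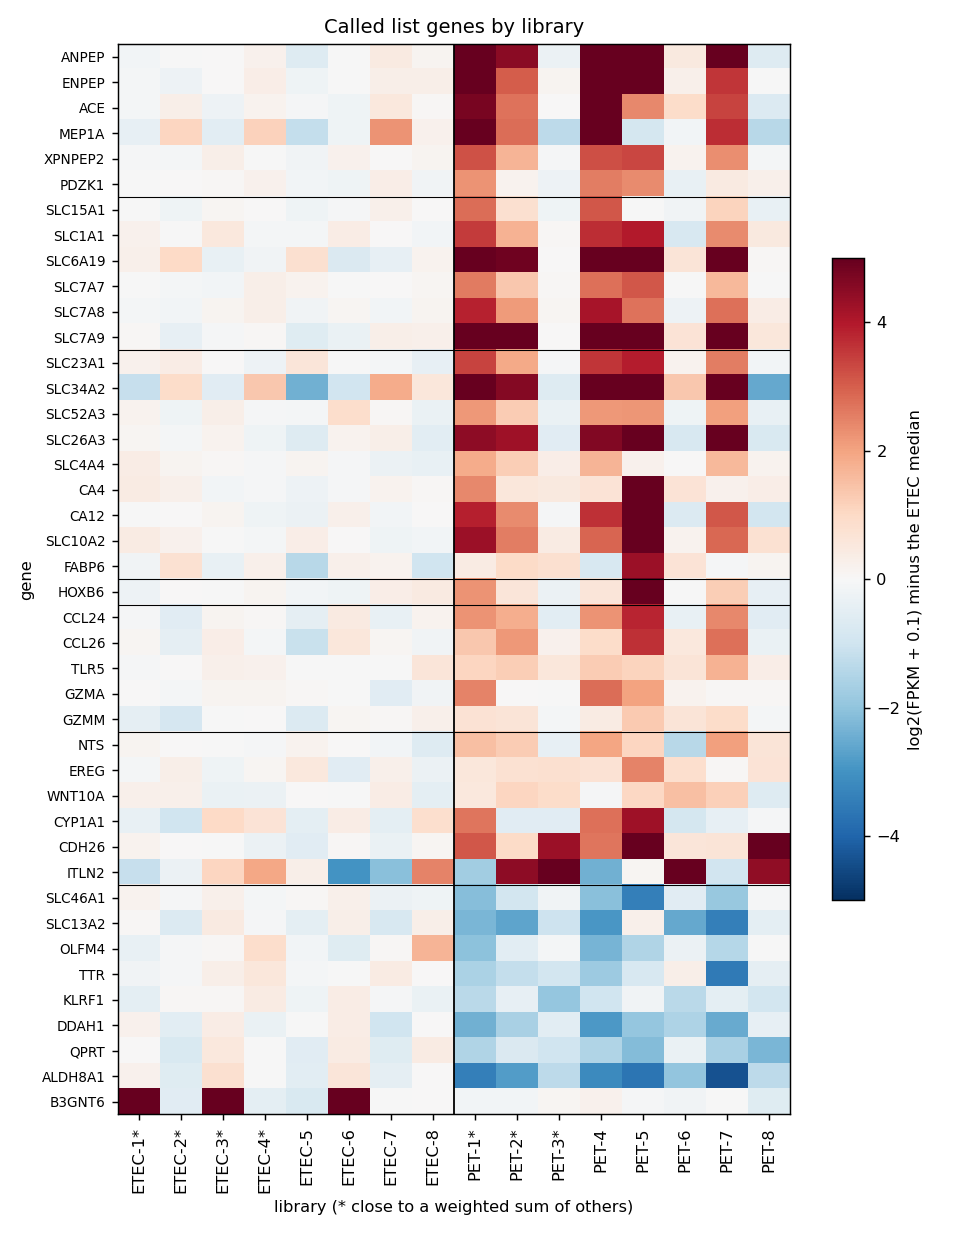
Called members of the gene lists, 42 of 45 (rows), in the 8 ETEC and 8 PET libraries (columns), coloured by log2(FPKM + 0.1) minus the ETEC median, with the scale limited to 5 either way; asterisks mark libraries close to a sum. Most rows of brush border and carrier genes are red in PET-1, PET-2, PET-4, PET-5 and PET-7 and pale across PET-3, PET-6 and PET-8.

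A small set of genes separated the groups library by library. In 15 of the 527 genes tested (2.85%) no PET library overlapped any ETEC library, 4 of them (0.759%) with PET above and 11 (2.09%) with PET below. The 4 were CDH26, SFN, PITPNM3 and 1 locus without a name (chromosome 4, 108183035 to 108196844). The 11 were ALDH8A1, REC8, C10orf82, PRSS50, B4GALT6, PITX1, 2 Ensembl genes without a symbol and 3 loci without a name. PITPNM3, PITX1 and B4GALT6 were singled out after their values were seen. These 15 genes were picked because all 8 PET libraries lie outside the ETEC range. PET-3, PET-6 and PET-8, which were low for ANPEP, therefore lie outside it by that choice. Of the 16 libraries, 7 were close to a mix of others of their group, and such a mix tends to lie between its parts. The separation thus rests mainly on the other 9, of which 4 were ETEC and 5 PET.

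CDH26, a cadherin of epithelia reported in humans with eosinophilic inflammation (ENSBGRG00000024093; chromosome 12, 49832557 to 49884473), was at 0.177 to 0.362 FPKM in ETEC (median 0.311). In PET it read 3.48, 0.695, 7.96, 2.55, 13.5, 0.528, 0.534 and 15.2 from PET-1 to PET-8, and in CON 0.124 to 0.882. The highest library was PET-8, in which ANPEP was lowest of all 16. CDH26 had a log2 fold change of 4.27 ± 0.72 with an edgeR adjusted p of 0.00209, and 4.58 over the 9 libraries (unadjusted p = 0.00311).

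SFN, stratifin, a checkpoint protein of epithelial cells (ENSBGRG00000008845; chromosome 2, 11241274 to 11243163), was at 0.525 to 0.823 FPKM in ETEC and 1.12 to 6.76 in PET. Apart from PET-5 at 6.76, the PET libraries lay between 1.12 and 2.21, all above the highest ETEC library. SFN had a log2 fold change of 1.82 ± 0.36 (edgeR adjusted p = 0.00299; 2.09 over the 9 libraries with unadjusted p = 0.00955). PITPNM3, a membrane-associated phosphatidylinositol transfer protein, was at 0.673 to 1.28 FPKM in ETEC and 1.57 to 3.13 in PET (log2 fold change 0.89 ± 0.23, edgeR adjusted p = 0.00897), and this call was lost with DESeq2 size factors.

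**Figure D5:**
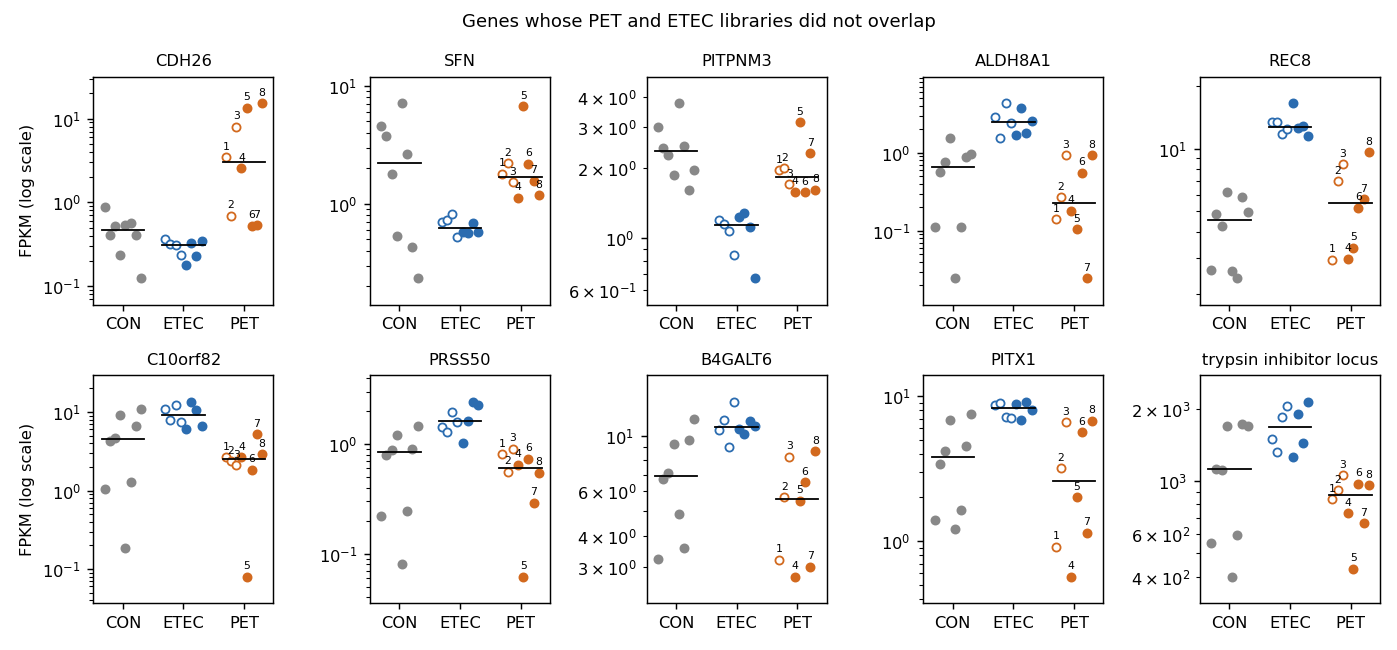
FPKM (log axis) of 10 of the 15 genes whose PET and ETEC libraries did not overlap, in CON (grey), ETEC (blue) and PET (orange); numbers are PET replicate numbers, black bars are medians, and open circles are ETEC or PET libraries close to a sum. In CDH26 all PET points lie at 0.528 FPKM or more, above the ETEC maximum of 0.362, and in REC8 all lie at 9.61 or less, below the ETEC minimum of 11.6.

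Enzymes of tryptophan and NAD metabolism were lower in PET, and both members in the table fell (median log2 fold change -1.998). The share of falls over all genes tested was 11.4%. ALDH8A1, an aldehyde dehydrogenase of the kynurenine pathway (ENSBGRG00000018084; chromosome 10, 15344724 to 15372436), was at 1.56 to 4.31 FPKM in ETEC (median 2.46). It read 0.140, 0.271, 0.927, 0.182, 0.106, 0.555, 0.0246 and 0.931 in PET-1 to PET-8, so that the highest PET library lay below the lowest ETEC library. For ALDH8A1 the log2 fold change was -2.74 ± 0.58 (edgeR adjusted p = 0.00403) and -2.76 over the 9 libraries (unadjusted p = 0.0102). QPRT, which makes nicotinic acid mononucleotide from quinolinate, was at 20.8 to 50.2 FPKM in ETEC and 7.21 to 28.0 in PET, with 6 of 8 PET libraries below all ETEC libraries (log2 fold change -1.26 ± 0.33, edgeR adjusted p = 0.00897).

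Other metabolic enzymes fell as well. SDSL, a serine and threonine dehydratase-like enzyme, was at 10.9 to 74.4 FPKM in ETEC (median 43.6) and at 0.191 to 3.90 in 6 PET libraries, while PET-3 and PET-8 were at 25.5 and 26.7. PET-3 was the library fitted by PET-6 and PET-8, so PET-3 and PET-8 need not be separate cases here or for DDAH1. SDSL had a log2 fold change of -2.48 ± 0.78 (edgeR adjusted p = 0.0186). DDAH1, which degrades the nitric oxide synthase inhibitor dimethylarginine, was at 4.43 to 11.8 FPKM in ETEC and 1.16 to 6.68 in PET, with the same 2 libraries, PET-3 and PET-8, inside the ETEC range (log2 fold change -1.45 ± 0.39, edgeR adjusted p = 0.00933). ACACB, the mitochondrial acetyl-CoA carboxylase that restrains fatty acid oxidation, went from a median of 1.31 to 0.485 FPKM (log2 fold change -1.43 ± 0.42, edgeR adjusted p = 0.0150).

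REC8, a cohesin subunit known from meiosis (ENSBGRG00000017034; chromosome 11, 2438528 to 2446217), was at 11.6 to 16.5 FPKM in ETEC and 2.93 to 9.61 in PET. PET-1, PET-4 and PET-5 were lowest, at 2.93 to 3.35, and PET-3 and PET-8 highest, at 8.42 and 9.61 (log2 fold change -1.21 ± 0.29, edgeR adjusted p = 0.00621). CON libraries were at 2.39 to 6.21 FPKM, so the ETEC group stood above both others, as a description. PITX1, a homeobox factor best known for hindlimb identity, was at 6.87 to 9.14 FPKM in ETEC, 0.569 to 2.01 in PET-1, PET-4, PET-5 and PET-7, 3.18 in PET-2, and 5.62 to 6.75 across PET-3, PET-6 and PET-8. Its log2 fold change was -1.27 ± 0.46 (edgeR adjusted p = 0.0314), and the call was lost without PET-1, PET-5 or PET-7 (adjusted p up to 0.0548). B4GALT6, a lactosylceramide synthase, fell from a median of 10.8 to 5.597 FPKM (log2 fold change -1.01 ± 0.28, edgeR adjusted p = 0.0120).

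C10orf82, a gene without an assigned function here, was at 6.03 to 13.5 FPKM in ETEC and 0.0800 to 5.25 in PET, with PET-5 lowest (log2 fold change -1.93 ± 0.49, edgeR adjusted p = 0.00835). PRSS50, a serine protease gene known from testis, was at 1.03 to 2.43 and 0.0619 to 0.903 FPKM, also lowest in PET-5 (log2 fold change -1.58 ± 0.38, edgeR adjusted p = 0.00668). Among abundant transcripts, ENSBGRG00000016612, annotated in the table as a pancreatic trypsin inhibitor (chromosome 12, 69814229 to 69819390), was at 1254 to 2134 FPKM in ETEC and 432 to 1059 in PET, lowest in PET-5. Its log2 fold change was -1.03 ± 0.22 (edgeR adjusted p = 0.00504; -1.16 over the 9 libraries with unadjusted p = 0.0223). The 8 PET libraries thus carried less of this inhibitor transcript than any ETEC library.

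Genes of mucus and crypts showed 3 different library patterns. B3GNT6, a glycosyltransferase of mucin O-glycans, was at 96.9, 76.0 and 51.1 FPKM in ETEC-6, ETEC-3 and ETEC-1 and at 0.171 to 0.366 in the other 5 ETEC libraries, and PET spanned 0.202 to 0.435 (log2 fold change -6.40 ± 1.44, edgeR adjusted p = 0.00504, and -5.78 without ETEC-6). PET libraries therefore lay inside the ETEC range, ETEC-6 was part of the mixes fitted to ETEC-1 and ETEC-3, and voom gave an adjusted p of 0.373. A similar on and off pattern was seen at a locus without an identifier, annotated as cyclin-G1 (chromosome 26, 47938930 to 47941974), at 9.39 to 15.0 FPKM in ETEC-1, ETEC-2, ETEC-3, ETEC-5 and ETEC-6 and at 0.171 to 0.369 in ETEC-4, ETEC-7 and ETEC-8, with PET at 0.197 to 0.435 (log2 fold change -4.71 ± 0.85, edgeR adjusted p = 0.00209). That call was also lost with voom.

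ITLN2, an intelectin, a lectin that binds microbial glycans, was high in PET-2, PET-3, PET-6 and PET-8. It was at 63.9, 33.4, 23.1 and 22.4 FPKM in PET-6, PET-3, PET-2 and PET-8 and at 0.0943 to 1.00 in PET-1, PET-4, PET-5 and PET-7, against 0.0301 to 5.74 in ETEC. PET-3, PET-6 and PET-8 were low for ANPEP and PET-2 was high. PET-2, however, was the library fitted by PET-6 (49.3%) and PET-7 (50.7%). Among the PET libraries not close to a sum, ITLN2 was high only in PET-6 and PET-8, both low for ANPEP. The log2 fold change was 3.34 ± 1.23 (edgeR adjusted p = 0.0349), and leaving out any of 8 single libraries ended the call (adjusted p up to 0.0798, and a log2 fold change of 2.69 without PET-6). OLFM4, a secreted glycoprotein of crypt base cells, was at 78.7 to 396 FPKM in ETEC (median 121) and 23.7 to 119 in PET (median 64.2), with PET-1, PET-4, PET-5 and PET-7 below every ETEC library (log2 fold change -1.19 ± 0.42, edgeR adjusted p = 0.0292; lost without any of 6 single libraries, adjusted p up to 0.0856). The crypt gene IGF2BP3 did not pass (log2 fold change -0.90 ± 0.38, edgeR adjusted p = 0.0596) but was called lower with TMM scaling (adjusted p = 0.0487), and the trefoil peptide TFF1 stood at medians of 3.42 FPKM in ETEC and 1.71 in PET (adjusted p = 0.227).

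Immune genes changed in subsets of libraries. Of the T and NK cell genes, GZMA and GZMM rose and KLRF1 fell, all 3 that were in the table. Over all genes tested, 33.8% rose and 11.4% fell. GZMA, a granzyme of cytotoxic lymphocytes, was at 12.2 to 20.4 FPKM in ETEC, at 103, 128 and 73.5 in PET-1, PET-4 and PET-5, and at 18.3 to 20.7 in the other 5 PET libraries (log2 fold change 1.49 ± 0.46, edgeR adjusted p = 0.0178). PET-1 was the library fitted mainly by PET-4, so this pattern rests on few separate libraries.

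GZMM, another granzyme, moved in more libraries but by less, with 6 of 8 PET libraries above ETEC (1.88 to 4.17 FPKM in ETEC, 3.18 to 8.71 in PET; log2 fold change 0.78 ± 0.26, edgeR adjusted p = 0.0246). KLRF1, an activating receptor of NK cells, was below ETEC in 6 of 8 PET libraries (0.931 to 1.78 FPKM in ETEC, 0.271 to 1.18 in PET; log2 fold change -0.95 ± 0.30, edgeR adjusted p = 0.0191). The summed level of the 3 T and NK cell genes was 17.1 to 25.7 FPKM in ETEC and 21.8 to 133 in PET, and that of the 4 neutrophil genes present in the table was 12.9 to 40.1 FPKM in ETEC and 7.04 to 127 in PET; LTF, MMP9 and MPO did not pass. The part of these cells in the changes of other genes was not tested. Loci annotated as T cell receptor chains, grouped after their values were seen, rose in 4 of 8 tested cases (log2 fold changes 1.02 to 1.497), and killer cell lectin-like receptor loci in 2 of 4 (2.27 and 3.08). Of all genes tested 33.8% rose, so counts this small are read only as a description.

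IGHM, the heavy chain of immunoglobulin M (ENSBGRG00000008676; chromosome 17, 76013026 to 76023123), was at 1782 to 4066 FPKM in ETEC and 877 to 1919 in PET, with 7 of 8 PET libraries below every ETEC library. The log2 fold change was -0.96 ± 0.22 (edgeR adjusted p = 0.00538; -1.02 over the 9 libraries with unadjusted p = 0.0201). Reads of immunoglobulin genes can be shared between near-identical segments, so this value depends on how such reads were counted. Among other loci annotated as immunoglobulin chains, 2 of 8 tested fell, against 11.4% of all genes tested, and the count is a description.

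Both chemokines in the table rose, against 33.8% of all genes tested. CCL24, which attracts eosinophils, was at 1.59 to 3.28 FPKM in ETEC and read 11.8, 8.71, 1.65, 11.7, 35.2, 1.84, 13.0 and 1.58 in PET-1 to PET-8 (log2 fold change 2.21 ± 0.57, edgeR adjusted p = 0.00895). The high libraries were the same 5 as for ANPEP. CCL26, its neighbour on chromosome 26 with the same receptor, was at 1.83 to 6.21 FPKM in ETEC and 3.27 to 53.0 in PET (log2 fold change 2.02 ± 0.53, edgeR adjusted p = 0.00895). CCR3, that receptor and the only eosinophil gene in the table, did not pass (medians 2.33 and 3.32 FPKM, log2 fold change 0.88 ± 0.56, adjusted p = 0.219).

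TLR5, the receptor for bacterial flagellin, was at 1.79 to 2.86 FPKM in ETEC and 2.35 to 6.39 in PET, above the ETEC range in 6 of 8 libraries (log2 fold change 0.95 ± 0.24, edgeR adjusted p = 0.00893; lost with DESeq2 size factors). The inducible nitric oxide synthase NOS2 stood at medians of 0.574 and 0.835 FPKM and did not pass (log2 fold change 0.90 ± 0.38, edgeR adjusted p = 0.0602). The interferon-induced gene ISG15 spanned 3.48 to 29.5 FPKM in ETEC and 4.36 to 8.59 in PET (log2 fold change -0.91 ± 0.41, edgeR adjusted p = 0.0780), and it was called lower with TMM scaling (adjusted p = 0.0389). TREM2, a macrophage receptor, did not pass either (adjusted p = 0.541).

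TNFRSF9, the costimulatory receptor 4-1BB of activated T cells, was also added after its values were seen. It was at 1.58 to 3.33 FPKM in ETEC and at 6.81, 8.72, 7.80 and 4.82 in PET-1, PET-4, PET-5 and PET-7, with the other PET libraries at 1.58 to 3.10 (log2 fold change 1.10 ± 0.35, edgeR adjusted p = 0.0203). GPR15, a homing receptor that brings lymphocytes to the large intestine, was added after its values were seen together with a locus annotated as its ligand. The ligand locus, ENSBGRG00000026318 (chromosome 27, 40471478 to 40482948), was at 0.688 to 1.22 FPKM in ETEC and read 26.1, 5.53, 0.601, 5.15, 272, 1.45, 9.92 and 0.952 in PET-1 to PET-8 (log2 fold change 5.42 ± 1.19, edgeR adjusted p = 0.00504, and 2.91 without PET-5). GPR15 was at 2.47 to 4.19 FPKM in ETEC, 43.3 in PET-5, 12.5 in PET-1 and 2.26 to 10.4 in the rest (log2 fold change 1.69 ± 0.55, edgeR adjusted p = 0.0211; without PET-5 a log2 fold change of 0.85 and 0.0704). Both were highest in PET-5 among the 16 libraries.

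Hormone and growth factor genes rose in part. NTS, neurotensin, a hormone of enteroendocrine cells, was at 3.79 to 6.84 FPKM in ETEC and 2.23 to 24.99 in PET, above the ETEC range in 6 of 8 libraries (log2 fold change 1.24 ± 0.40, edgeR adjusted p = 0.0205). CCK, cholecystokinin, did not pass (log2 fold change -0.42 ± 0.60, edgeR adjusted p = 0.620). It read 6.91 and 4.58 FPKM in PET-8 and PET-3, the latter close to a mix of PET-6 and PET-8. The other 6 PET libraries were at 0.299 to 1.13 FPKM. EREG, epiregulin, an epidermal growth factor receptor ligand, was above the ETEC maximum of 2.98 FPKM in 7 of 8 PET libraries, with PET-5 at 12.1 and the other 6 at 3.13 to 3.82 (log2 fold change 1.07 ± 0.33, edgeR adjusted p = 0.0184). WNT10A, a Wnt ligand, was at 0.283 to 0.599 FPKM in ETEC and 0.243 to 1.42 in PET (log2 fold change 0.96 ± 0.33, edgeR adjusted p = 0.0252; without PET-6 0.0503). With TMM scaling the calls of NTS, EREG and WNT10A were lost. GDF15 and PAPPA2 did not pass (adjusted p = 0.584 and 0.426).

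PET-3 and PET-8 set the values of ADA, adenosine deaminase, which clears adenosine. It was at 130 and 230.0 FPKM there and at 5.22 to 8.86 in the other 6 PET libraries, while ETEC spanned 14.2 to 73.9. The 2 high libraries and the 6 low ones all lay outside the ETEC range, in opposite directions. PET-3 was, however, the library fitted by PET-6 (45.4%) and PET-8 (54.6%), so the high values rest on few separate libraries. For ADA the group difference was 0.03 ± 0.79 on the log2 scale (edgeR adjusted p = 0.981). ABCC2, an export pump, was likewise both above and below ETEC (4.93 to 8.34 FPKM), at 8.66 to 13.8 in PET-8, PET-1 and PET-4 and at 0.664 to 3.61 in PET-2, PET-5, PET-6 and PET-7 (log2 fold change -0.02 ± 0.45, adjusted p = 0.974). A mean difference near 0 thus covered libraries that differed from ETEC in either direction.

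Of 10 liver-type plasma protein genes in the table, 8 were tested and 1 was called by edgeR, against 45.2% of all genes tested. It was TTR, the thyroid hormone and retinol carrier transthyretin, at 2.41 to 4.02 FPKM in ETEC and 0.144 to 3.31 in PET (log2 fold change -1.12 ± 0.41, edgeR adjusted p = 0.0329; lost without any of 6 single libraries, adjusted p up to 0.0660). ALB stood at medians of 1.25 and 3.84 FPKM (adjusted p = 0.454). Of 3 xenobiotic genes, CYP1A1, the aryl hydrocarbon receptor target, was called on PET-5 at 16.1 FPKM, PET-4 at 5.70 and PET-1 at 5.34, with the other 5 PET libraries at 0.370 to 0.723 inside the ETEC range of 0.336 to 1.62 (log2 fold change 2.02 ± 0.78, edgeR adjusted p = 0.0428; lost without any of 9 single libraries, adjusted p up to 0.210 and a log2 fold change of 1.09 without PET-5). PET-1 was the library fitted mainly by PET-4, so the high CYP1A1 values rest on few separate libraries. NQO1, of the oxidative stress response, did not pass (log2 fold change -0.26 ± 0.23, edgeR adjusted p = 0.393).

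ENPP7, the alkaline sphingomyelinase of the brush border, was at 91.9 and 116 FPKM in PET-1 and PET-4. PET-1 was the library fitted mainly by PET-4 (89.9%), so these values rest on few separate libraries. The other 6 PET libraries were at 0.0225 to 1.97 FPKM, against 0.701 to 6.02 in ETEC. ENPP7 did not pass (log2 fold change 3.18 ± 1.29, edgeR adjusted p = 0.0540). Over all lists, 84 of 848 genes were in the table and 75 were tested, of which 36 rose, 9 fell and 30 did not pass. The shares over all genes tested were 33.8% higher and 11.4% lower. The share called among list genes is not independent of the list's selection, since the authors chose the table's genes on these same libraries. Lists for tuft cells, for smooth muscle, fibroblasts and endothelium, for red blood cells, for mineral transport and for cholesterol synthesis had 0 members in the table.

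Further rises were singled out after their values were seen. SUSD2, a membrane protein of epithelia, was at 1.48 to 2.93 FPKM in ETEC and 1.58 to 61.6 in PET (log2 fold change 3.36 ± 0.70, edgeR adjusted p = 0.00403), and SLCO4C1, an organic anion carrier, at 0.424 to 0.867 and 0.483 to 25.3 (log2 fold change 3.75 ± 0.74, adjusted p = 0.00299). Both were high in the same 5 PET libraries as ANPEP. The sulfotransferases GAL3ST1 and GAL3ST2, which add sulfate to galactose of glycolipids and glycoproteins, had another order: PET-1, PET-4, PET-5, PET-3 and PET-8 were above ETEC for both, and PET-2 and PET-7 were at 0.184 and 0.201 FPKM for GAL3ST1, below the ETEC minimum of 0.305. Their log2 fold changes were 2.51 ± 0.73 and 3.14 ± 0.63 (edgeR adjusted p = 0.0144 and 0.00336), or 1.83 and 2.26 without PET-5. PCK1, the gluconeogenic enzyme, was above the ETEC range of 1.26 to 2.48 FPKM in 7 of 8 PET libraries, with PET-4 and PET-1 at 25.2 and 19.9 (log2 fold change 2.19 ± 0.53, edgeR adjusted p = 0.00646).

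Of the 639 listed loci, 240 have a gene symbol, 124 an Ensembl identifier only and 275 neither. Of the 212 genes with a symbol that were tested, 94 were higher and 24 lower, of 111 Ensembl genes without one 32 and 13, and of 204 loci with neither 52 and 23. The largest rise of these by the naming rule was a locus on chromosome 29 (9043525 to 9045548), annotated in the table as the peptidase-like protein NAALADL1, at 1.37 to 2.35 FPKM in ETEC and 1.60 to 994 in PET, with PET-5 highest and the next library at 127 (log2 fold change 6.34 ± 1.25, edgeR adjusted p = 0.00299, and 4.32 without PET-5). Loci annotated as retroviral or LINE-1 sequence, grouped after their values were seen, were called in both directions, 6 higher and 8 lower of 45 tested, against 33.8% higher and 11.4% lower over all genes tested.

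Low counts kept 112 genes out of the test, among them CPO, SLC13A1, CA7, OSR2, TMIGD1 and SLC5A11. Without the filter, 44 of the 112 were called higher and 14 lower, and the authors' deposited table had 31 higher and 12 lower. CA7, a cytosolic carbonic anhydrase, was listed at 0 to 0.0472 FPKM in ETEC and at 4.76 to 25.7 in PET-1, PET-2, PET-4, PET-5 and PET-7, with the other 3 PET libraries at 0 to 0.0526. TMIGD1, an adhesion protein of enterocytes, was at 305 FPKM in PET-5, 31.8 in PET-1 and 11.7 in PET-4 and at 0.0560 to 0.339 in the rest, against 0 to 0.285 in ETEC (edgeR adjusted p without the filter 0.00431). SLC5A11, a sodium-dependent inositol carrier, reached 16.3 FPKM in PET-5 and 2.98 or less elsewhere in PET, against at most 0.198 in ETEC (adjusted p without the filter 0.00415).

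The authors' deposited table called 229 genes in this comparison, 35.8% of those listed, of which 175 (27.4%) were higher and 54 (8.45%) lower in PET. Of the 527 genes tested here, 186 carried such a call, and all 186 were also called here in the same direction. The log2 fold changes in the authors' deposited table differed from those fitted here by a median of -0.01, but in 21 of 506 genes with both values they were lower by more than 1, and in 8 the signs were opposite.

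The large gaps included genes that PET-5 or a few libraries carried. In the authors' deposited table the log2 fold change was -1.19 for ENPP7 (3.18 here), 0.77 for HOXB6 (2.76 here) and 1.22 for CA4 (3.43 here). It was 2.64 for SLC10A2 (4.94 here), 0.45 for FABP6 (1.92 here) and 2.80 for the GPR15 ligand locus (5.42 here). Of the genes called here, 52 carried no call in the authors' deposited table. CA4, FABP6, HOXB6, OLFM4, SLC46A1, SLC13A2 and CYP1A1 were among them, with the authors' adjusted p at 0.0507 to 0.412. IGHM, WNT10A, GZMM, TLR5, KLRF1 and PITPNM3 were also among them, at an authors' adjusted p of 0.0421 or less and log2 fold changes of less than 1 in size.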

How the data were processed

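RNA of jejunal tissue was sequenced in 24 libraries, of which the 16 of the ETEC and PET groups were compared; groups and replicate numbers came from the titles. TRIzol extraction and an integrity check are given per the labels' protocols, and the library text describes small RNA enrichment although the table holds gene values. No aligner, counter, strand setting or annotation is named, and the genome build is not given in the sources used here; overlapping genes and close paralogs are therefore uncertain.

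Per the file headers, the authors deposited a raw count for each gene and library. The deposited FPKM columns hold the authors' counts scaled by gene length and mapped fragments. For each pair of groups the authors also deposited a log2 fold change, a p-value and its adjusted form. All 639 listed genes were called by the authors in some comparison, and its symbols and coordinates are used as given.

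Since the table holds selected genes, library sizes were relative depths, the median of count divided by FPKM in 233 genes that had 20 or more counts. The main test was the quasi-likelihood test of edgeR 4.0.16, run in R 4.3.3 (filterByExpr with a minimum count of 10, group as the only term, two-sided), with Benjamini-Hochberg adjustment over 527 genes and a threshold of 0.05. Log2 fold changes are given with their SE, and FPKM as the lowest, median and highest library or library by library. Named genes were the 8 largest rises and falls and the 6 smallest adjusted p in each direction among called genes with a symbol and at least 1 FPKM, every list member in the table, and at most 2 genes without a symbol per direction; those added later are marked, and results for some are not reported here. The comparison, gene lists and choices were made with earlier results of these data known. Every pair of other ETEC or PET libraries was fitted to each ETEC or PET library with weights of 0 or more over 510 genes. A residual under 0.8 of that of the best single library marked a sum, and CON libraries were not fitted. Counts of libraries in the same group differed by a chi-square per gene of at least 30.1 over 56 pairs, so none agreed within sampling noise. Alternatives were TMM and DESeq2 size factors, no filter, all 3 groups in a fit, DESeq2 1.42.0, limma 3.58.1 (voom with quality weights, and on log2 of FPKM with a pseudocount of 0.1 or 1), other thresholds, the replicate number as a block, each library left out, the 14 libraries with USP9Y counts, and the 9 libraries not close to a sum. The last with DESeq2 and limma, and the 7 sum-like libraries alone, were added after seeing the data.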

Additional observations from a re-analysis of the deposited data

Results flagged for a closer look

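Among the 200 groups of 8 libraries examined, 1 group for each gene and condition, 34 held a library set apart from the other 7 by a gap above Dixon's 95% critical value for a group of that size. Chance would flag about 1 in 20 groups of independent, normally distributed values. FPKM need not be normally distributed, and some libraries were close to mixes of others. That rate is therefore no yardstick for the count here. The library set apart was PET-5 in 21 of the 34, each time as the highest PET library, and no explanation was tested.

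For transporters and carbonic anhydrases, PET-5 stood at 134 FPKM for SLC7A9 (next library 32.0), 135 for SLC10A2 (14.3), 16.3 for SLC5A11 (2.98), 11.01 for CA4 (1.20) and 19.8 for CA12 (5.44). For bile acid binding, adhesion and regional genes it stood at 51.3 FPKM for FABP6 (5.08), 305 for TMIGD1 (31.8), 157 for HOXB6 (17.5) and 102 for OSR2 (46.7).

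For immune genes it stood at 35.2 FPKM for CCL24 (next library 13.0), 12.8 for CCR3 (4.48), 1.33 for MPO (0.582), 104 for MMP9 (36.6) and 43.3 for GPR15 (12.5). The remaining genes highest in PET-5 were SFN at 6.76 (2.21), EREG at 12.1 (3.82), CYP1A1 at 16.1 (5.70), GAL3ST1 at 11.8 (4.95), GAL3ST2 at 23.6 (6.21), the NAALADL1-like locus at 994 (127) and ENSBGRG00000026318 at 272 FPKM (26.1).

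In PET-8, TFF1 was set apart at 5.69 FPKM (next library 2.47). ETEC-8 was set apart for OLFM4 at 396 FPKM (222), CPO at 0.0699 (0.0246), TLR5 at 2.86 (2.20), NTS at the low end with 3.79 (5.45) and USP9Y, also low, with 0 (8.14). ETEC-5 was set apart for REC8 at 16.5 FPKM (13.5), FGB at 4.18 (2.05), FGG at 2.83 (1.17) and SULT2A1 at 0.999 (0.602). Single values stood apart for SLC52A3 in ETEC-6 at 1.19 FPKM (0.773), SLC13A1 in ETEC-2 at 0.0469 (0.0273) and MEP1A in ETEC-7 at 9.04 (4.08).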

How the results depend on the processing

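Against 238 called genes (178 higher, 60 lower), 45 called list members and 66 called named genes, the counts moved by over 1.5 times under these settings. Higher genes numbered 109 with DESeq2 size factors, 95 with limma on log2(FPKM + 0.1) and 90 with limma on log2(FPKM + 1), which called 153 in all. At an adjusted p under 0.01 edgeR called 87, 66 higher and 21 lower. With only the 9 libraries unlike a sum, edgeR, voom and limma on log2(FPKM + 0.1) gave 0 for all 5 counts, as did edgeR over the 7 sum-like libraries, and DESeq2 gave 54 (44 higher, 10 lower), 19 list members and 27 named genes. Fewer libraries enter these fits, and the cause of the lost calls was not tested further. With 1 library left out, edgeR called 202 to 262 genes, 158 to 192 higher and 43 to 70 lower, with 39 to 50 list members and 59 to 66 named genes.

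Direction reversed with voom for ADA (log2 fold change -1.77, adjusted p = 0.0230), CYP1A1 (-0.0577) and GAL3ST1 (-0.0443), and the cause was not tested. Voom also ended calls, among them those of B3GNT6, ITLN2, OLFM4, PDZK1, FABP6, GZMA, HOXB6, MEP1A, GPR15, TNFRSF9 and the cyclin-G1 locus. TMM added falls of IGF2BP3 (-1.06) and ISG15 (-1.18) and ended the calls of WNT10A, NTS, GZMM, FABP6, EREG, SLC15A1, SLC46A1, CYP1A1 and TNFRSF9. The labels do not say what a shared replicate number means. Deviations of same-numbered libraries correlated at 0.11 to 0.44 in 7 of 8 pairs and at -0.09 in the other, and 4 of 8 PET libraries correlated best with their own number, which is a hint from the data and not the design, so the numbers were not taken as pairs. As a block the number left 54 calls (24 higher, 30 lower), 6 of list members and 14 of named genes: SLC6A19, CDH26, SFN and SLCO4C1 higher, and ALDH8A1, SDSL, C10orf82, PRSS50, DDAH1, ACACB, SLC13A2, REC8, QPRT and the trypsin inhibitor ENSBGRG00000016612 lower. Libraries with USP9Y counts gave 249 calls.

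The 112 untested genes had enough counts in too few libraries for the filter. Genes high in only part of the PET libraries, such as OSR2, CA7 and TMIGD1, were left out in this way. Where ETEC was nearly silent, a fitted fold depends on the prior count.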
